A study of Mus musculus with 12 samples.

Results

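The genes described here are receptors for extracellular nucleotides and the surface enzymes that degrade nucleotides or NAD: P2ry13, P2ry14, P2ry12, P2ry10, P2ry6, P2rx4, P2rx7, Entpd1, Nt5e and Cd38. The 10 genes were chosen by name, and every non-control probe carrying 1 of those names in the scanner files was taken, which gave 13 probes (3 for P2rx7, 2 for P2rx4 and 1 for each of the others) of 55681 on the array. RNA came from sorted splenic regulatory T cells (Treg) of female mice on the C57BL/6 background and was hybridised to 12 Agilent arrays with 1 dye. The groups, each of 3 arrays, were WT cells that were not activated (WT 0 h, mice of 9 weeks), CD83cKO cells that were not activated (KO 0 h), WT cells after 3 h of anti-CD3/-CD28 (WT 3 h, mice of 9 weeks) and CD83cKO cells after the same 3 h (KO 3 h). In each KO group, 2 arrays came from mice of 10 weeks and the third came from a mouse of 21 weeks. CD83cKO is a conditional knockout of Cd83, a surface protein of activated lymphocytes and dendritic cells. The labels name no Cre driver, and the sorting markers are not given in the sources used here. The 12 arrays stand for 6 mice, and which arrays share a mouse is not labelled, so the spread between arrays may understate the spread between mice, and p-values over arrays may be too small.

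Cells release ATP and other nucleotides when they are stimulated, stressed or damaged. P2X receptors are cation channels opened by ATP, and P2Y receptors are G-protein-coupled receptors for ATP, ADP, UDP or UDP-sugars. CD39 (Entpd1) and CD73 (Nt5e) convert extracellular ATP stepwise to adenosine, a route by which Treg suppress other T cells. CD38 consumes NAD, the substrate with which ART2 enzymes modify and open P2RX7 on mouse T cells.

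Some facts of the whole series bear on every result. One slide carried the 6 KO arrays, a separate one WT 0 h and a separate one WT 3 h. Genotype therefore cannot be told apart from slide, and neither can activation of WT cells. Activation of KO cells was measured within 1 slide. The KO arrays of 21 weeks stood apart: the mean of 12 T cell markers relative to the WT 0 h mean was -1.91 at 0 h and -2.68 at 3 h on the log2 scale, against -0.62 to -0.29 on the other KO arrays, and the mean of 8 plasma cell markers was 5.63 and 6.01, against 0.10 to 1.57. Cd4, Cd3e, Il2ra, Ctla4 and Ikzf2 were well above background on all 12 arrays. For the Foxp3 probe this held on 0 of 6 WT arrays and 6 of 6 KO arrays. Cd83 differed between KO and WT by -1.88 ± 0.265 at 0 h (SE, limma, adjusted p = 0.0089) and by -2.50 ± 0.265 at 3 h (adjusted p = 0.0023). The 0 h call was lost without WT 0 h replicate 1 or WT 0 h replicate 3 (limma, adjusted p up to 0.05125). The 3 h call was lost when only the compared groups were fitted (limma, adjusted p = 0.0632).

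Values below are log2 signals shifted by the 75th percentile of each array, and the lowest signal well above background lay between -8.09 and -6.12, depending on the array. Levels are compared between arrays for 1 probe, never between probes. When 3 KO values are listed, the last is the 21-week mouse. Of the 10 genes, 8 passed the filter, which asked that every array of some group show the probe well above background. The tests were made over all 18545 genes that passed, with 3 arrays in each group, and a gene was called at an adjusted p under 0.05.

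P2ry13 was the 1 member of 8 tested that was called between KO and WT. It was higher in KO, beside 1.82% of all genes called higher at 0 h and 1.26% at 3 h. At 3 h its probe was well above background on 0 of 3 WT and 1 of 3 KO arrays. With activation 5 of 8 members were called in WT, beside 13.3% of genes called higher and 16.6% lower. The P2ry10 call among them held in 13 of 26 alternative fits. In KO 3 of 8 were called, all lower, beside 9.79% of genes. P2ry13, P2rx7 and Cd38 fell with activation in WT cells and in KO cells. P2ry14 and P2ry10 rose with activation in WT cells, where all 3 arrays at 3 h lay above all 3 at 0 h for both genes. In KO cells neither gene passed the test on 12 arrays, and both did when the arrays of 21 weeks were left out.

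The sequences that carry the results are the 3 P2rx7 probes, which gave 3 separate readings of 1 gene, and the promoters of the 5 genes that changed. The P2rx7 probes are listed from 5′ to 3′ along the gene. The first and the last are given by their first 30 of 60 bases. The middle probe is given whole, and its mapped interval is longer than the probe, so it joins sequence that is separate in the genome.
P2rx7 probe A_55_P2183010, most 5′, mm9, chr5:123105174-123105233, plus strand: ggtcaaaaagctccccaatccatgcaacaa
P2rx7 probe A_51_P506733, middle, mm9, chr5:123120528-123123413, plus strand: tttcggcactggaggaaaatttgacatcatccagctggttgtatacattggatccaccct
P2rx7 probe A_52_P393314, most 3′, mm9, chr5:123134194-123134253, plus strand: ttcacttctctctttaaagggaaccatctt

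Promoter windows of 250 bases before an annotated start (RefSeq, GRCm38.p6) were searched on both strands for 5 short motifs, and matches are in capitals. The motifs were TGANTCA (bound by AP-1), GAGGAAG (PU.1 or other ETS factors), TGACGT (a CRE core), CACGTG (an E-box of MYC) and GGGANTTNC (NF-kB), with no overlap between the matches shown. The table held 9 of the 10 genes in 15 windows. For a gene with several starts, the window with the most matches is shown, chosen after the search. The second P2rx7 window held none, the 3 other P2ry14 windows held AP-1, none and NF-kB, and the other P2ry10 window held AP-1.
P2ry13 promoter, GRCm38.p6, chr3:59210883-59211132, minus strand: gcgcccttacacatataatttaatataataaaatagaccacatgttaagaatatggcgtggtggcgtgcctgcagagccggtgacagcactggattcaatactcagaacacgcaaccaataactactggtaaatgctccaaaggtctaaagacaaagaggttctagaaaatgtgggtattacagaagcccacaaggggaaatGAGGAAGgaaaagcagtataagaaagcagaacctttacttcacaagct
P2rx7 promoter, GRCm38.p6, chr5:122643677-122643926, plus strand: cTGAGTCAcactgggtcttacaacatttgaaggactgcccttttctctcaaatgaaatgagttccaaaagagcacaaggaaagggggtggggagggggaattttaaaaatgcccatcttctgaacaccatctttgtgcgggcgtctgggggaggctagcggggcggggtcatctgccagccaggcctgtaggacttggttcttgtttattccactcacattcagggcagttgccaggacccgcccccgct
Cd38 promoter, GRCm38.p6, chr5:43868559-43868808, plus strand: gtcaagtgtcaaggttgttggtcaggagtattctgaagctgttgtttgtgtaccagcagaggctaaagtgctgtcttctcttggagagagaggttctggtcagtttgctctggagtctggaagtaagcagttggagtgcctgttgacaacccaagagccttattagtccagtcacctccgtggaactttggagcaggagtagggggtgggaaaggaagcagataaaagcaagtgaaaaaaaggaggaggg
P2ry14 promoter, GRCm38.p6, chr3:59153493-59153742, minus strand: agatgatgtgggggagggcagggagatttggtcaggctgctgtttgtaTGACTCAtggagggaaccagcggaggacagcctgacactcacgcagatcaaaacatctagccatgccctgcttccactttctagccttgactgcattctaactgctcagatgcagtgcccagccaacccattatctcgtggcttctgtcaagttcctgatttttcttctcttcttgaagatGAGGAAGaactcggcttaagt
P2ry10 promoter, GRCm38.p6, chrX:107089083-107089332, plus strand: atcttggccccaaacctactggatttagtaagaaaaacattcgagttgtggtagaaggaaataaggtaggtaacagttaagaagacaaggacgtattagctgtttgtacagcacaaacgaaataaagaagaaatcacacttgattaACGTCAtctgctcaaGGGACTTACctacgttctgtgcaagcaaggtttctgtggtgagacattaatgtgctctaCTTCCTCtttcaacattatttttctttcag

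The P2ry13 window held GAGGAAG 48 bases before the start. The P2rx7 window held an AP-1 match 249 bases before it. No motif was found in the Cd38 window. The P2ry14 window held an AP-1 match at 202 bases and GAGGAAG at 21 bases, and the P2ry10 window held a CRE core at 104, an NF-kB match at 89 and GAGGAAG at 30 bases, on the opposite strand in the first and last case. The shares of 32851 windows of the same length with a match were 6.75% for AP-1, 10.6% for GAGGAAG, 6.47% for the CRE core, 6.02% for the E-box and 3.54% for NF-kB. A match describes letters and not binding, and no match says only that these letters are not in the window.

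**Figure D1:**
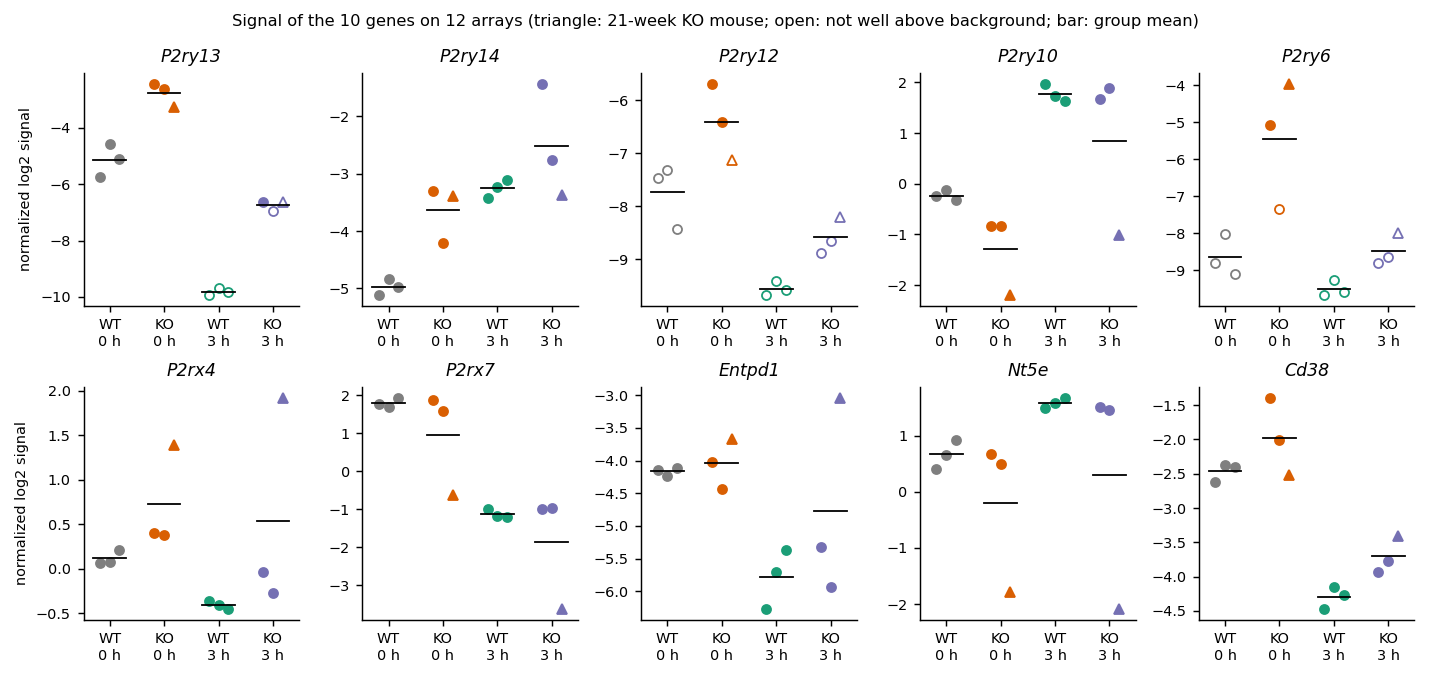
Normalized log2 signal (vertical axis) of each of the 10 genes on each of 12 arrays, by group (horizontal axis); circles are arrays, triangles are the 21-week KO mice, open symbols were not well above background and bars are group means. P2ry13 is highest in KO 0 h and lowest in WT 3 h, while the triangles stand far from the other KO arrays for Nt5e, P2rx7, P2ry10, P2rx4 and Entpd1.

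The first question was whether loss of CD83 changed these genes in cells that were not activated. P2ry13, a receptor for ADP coupled to inhibitory G proteins, was higher in KO. Its probe (mm9, chromosome 3) read -5.75, -4.56 and -5.09 on the WT 0 h arrays. On the KO 0 h arrays it read -2.43, -2.60 and -3.25. All 3 KO arrays lay above all 3 WT arrays, and the 21-week array was the lowest of the KO arrays. The difference was 2.37 ± 0.302 on the log2 scale (SE), a 5.18-fold higher signal, with an adjusted p of 0.00612 in limma. P2ry13 was the 1 of 8 tested members called higher, against 1.82% of all genes called higher. None of the 8 was called lower, against 0.259% of all genes.

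At 3 h, P2ry13 stood at -9.94, -9.69 and -9.81 in WT and at -6.62, -6.97 and -6.63 in KO. The groups did not overlap, but the probe was well above background on 0 of 3 WT arrays and 1 of 3 KO arrays. No fold is given, since 5 of these 6 signals were not well above background. The fitted difference was 3.08 ± 0.302 (limma, adjusted p = 0.00176), and with normexp background correction it was 0.82 and not called (adjusted p = 0.156). The call was also lost when only the compared groups were fitted. P2ry13 was again the 1 member called higher, against 1.26% of genes, with 0 called lower, against 0.189%.

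Markers of several other cell types were also high in KO 0 h, and among the lists those of macrophages were called most often. P2ry13 is expressed by macrophages and microglia as well as by other leukocytes. Of 14 macrophage and monocyte markers, 11 were higher in KO at 0 h (median 2.11) and 11 at 3 h (median 2.38), and 11 fell with activation in WT and 11 in KO. Their mean level, relative to WT 0 h, ran from -0.35 to 0.39 in WT 0 h, from 1.86 to 2.30 in KO 0 h, from -2.44 to -1.88 in WT 3 h and from -0.45 to 0.60 in KO 3 h. In KO 3 h this mean thus overlapped WT 0 h, whereas P2ry13 in KO 3 h lay below every WT 0 h array. Csf1r, a defining macrophage receptor, was well above background on all 12 arrays. Other lists were also high in KO 0 h. The mean of 9 dendritic cell markers ran from 0.89 to 2.26 in KO 0 h, from -1.35 to -1.14 in WT 3 h and from -0.74 to 1.11 in KO 3 h, and 1 of the 9 (Itgax) was called higher in KO at each time. In KO 0 h the mean of 4 mast cell and basophil markers ran from 2.27 to 6.22 and that of 5 erythroid markers from 2.72 to 3.59, with 0 called. The part of these cell types in the result was not tested. In these bulk samples, fewer cells of a type and less RNA per cell cannot be told apart.

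P2ry14, the receptor for UDP-glucose, gave a difference that did not pass the test. Its probe read -5.12, -4.84 and -4.98 in WT 0 h and -3.30, -4.21 and -3.39 in KO 0 h. The groups did not overlap, and the difference of 1.35 ± 0.428 had an adjusted p of 0.164 (limma). The adjusted p was 0.0286 at its lowest over 26 alternatives, and the gene was called with array quality weights and without KO 3 h replicate 1. At 3 h the groups overlapped, with a difference of 0.74 (adjusted p = 0.548).

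P2ry12, the ADP receptor of platelets and microglia, was dim and did not pass the filter with 12 arrays. Its probe lies 8485 bp from that of P2ry13 and 101991 bp from that of P2ry14 in mm9. It read -7.46, -7.32 and -8.42 in WT 0 h and -5.69, -6.40 and -7.14 in KO 0 h. The KO arrays lay above the WT arrays, and only the KO arrays of 10 weeks were well above background. Without the arrays of 21 weeks, P2ry12 passed the filter through those KO 0 h arrays alone, so that it had to differ, and it is left out of the counts given for 10 arrays. Of 7 platelet and megakaryocyte markers, 4 were tested and 0 were called in KO 0 h against WT 0 h, while their mean lay 2.07 to 4.34 above WT 0 h on the KO 0 h arrays. Their part in the P2ry12 values was not tested.

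P2ry6, a receptor for UDP found on macrophages, was also dim. It read -8.81, -8.03 and -9.09 in WT 0 h, all not well above background, and -5.07, -7.35 and -3.96 in KO 0 h, with replicates 1 and 3 well above it. The KO 0 h arrays lay above the WT 0 h arrays but spread widely.

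P2ry10, a receptor of lymphocytes now known as a lysophosphatidylserine receptor, read -0.24, -0.13 and -0.33 in WT 0 h. In KO 0 h it read -0.83, -0.83 and -2.20. All KO arrays lay below all WT arrays, and the array of 21 weeks lay far below the rest. The difference of -1.05 ± 0.672 did not pass (adjusted p = 0.499, limma). Without the arrays of 21 weeks the spread was smaller, and P2ry10 was called at -0.60 ± 0.132 (adjusted p = 0.0401). On 10 arrays 2 of the 8 members were thus called at 0 h (P2ry13 higher and P2ry10 lower), against 6.51% of all genes, and 1 of 8 at 3 h (P2ry13), against 1.85%.

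The remaining members did not pass the test between genotypes at either time. Of the channels, P2rx4 differed by 0.60 ± 0.501 at 0 h (limma, adjusted p = 0.606) and P2rx7 by -0.85 ± 0.762 (adjusted p = 0.630). Of the ectoenzymes, Entpd1 differed by 0.12 ± 0.610 (adjusted p = 0.941), Nt5e by -0.87 ± 0.918 (adjusted p = 0.684) and Cd38 by 0.49 ± 0.265 (adjusted p = 0.416). With SEs of this size a change of 2-fold was not detectable at 0 h for any of these genes. At 3 h the limma adjusted p of the 7 members other than P2ry13 ran from 0.473 to 0.676.

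Counted by overlap alone, 3 members lay higher on every KO 0 h array than on any WT 0 h array (P2ry13, P2ry14 and P2rx4), as did 16.9% of all genes, and P2ry10 lay lower, as did 14.8%. At 3 h the count was 3 higher (P2ry13, P2rx4 and Cd38), against 11.8%, and 0 lower, against 7.38%. P2rx4 is counted by its brighter probe, and the groups overlapped at 3 h on its second probe. P2ry13 was well above background at 3 h on 0 of 3 WT and 1 of 3 KO arrays. The median difference over the 8 members was 0.31 at 0 h, beside -0.03 over all genes, and 0.66 at 3 h, beside 0.04. On the 10 arrays without those of the oldest KO mice, the median over the same 8 members was smaller, 0.10 at 0 h and 0.21 at 3 h. The median over all genes was not worked out on those 10 arrays.

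**Figure D2:**
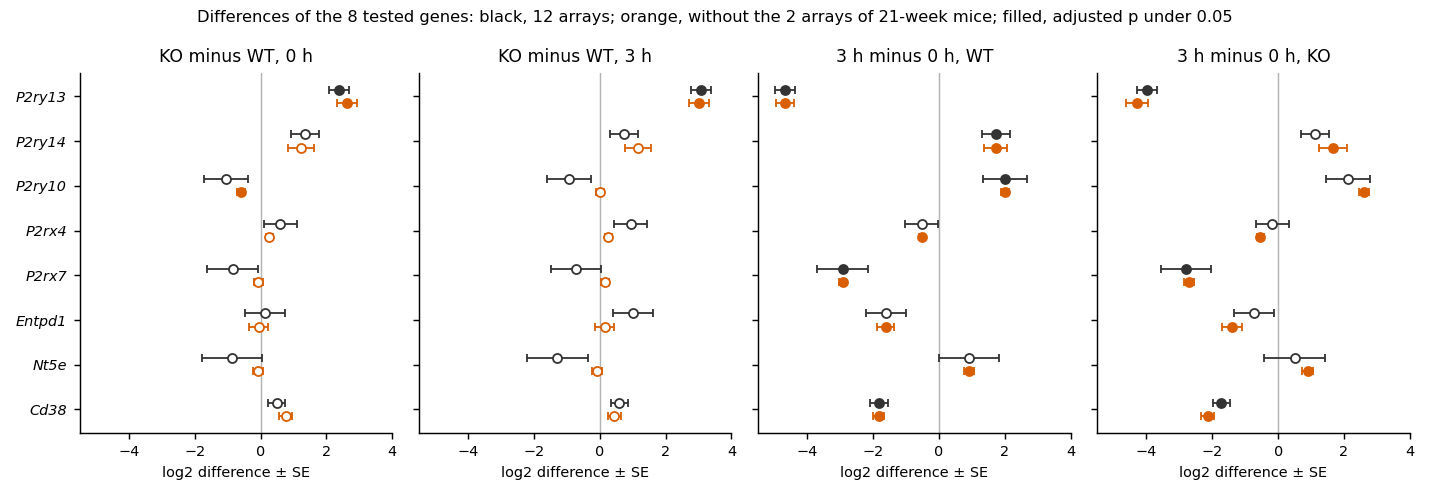
Log2 difference ± SE (horizontal axis) of the 8 tested genes in 4 comparisons, with all 12 arrays in black and without the arrays of 21 weeks in orange; filled points have an adjusted p under 0.05. P2ry13 is called in every panel, and the orange points of Nt5e, P2rx7, P2ry10 and Entpd1 have much shorter bars than the black ones.

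The second question was what 3 h of activation did. In WT cells 3 members fell and 2 rose. P2ry13 went from -5.75, -4.56 and -5.09 to signals not well above background on any WT 3 h array. On the processed signal it was at least 5.23-fold lower at 3 h (fitted difference -4.68 ± 0.302, limma, adjusted p = 4.09e-05), the 0 h mean being set against the lowest signal well above background. In KO cells it fell, with a fitted difference of -3.98 ± 0.302 (adjusted p = 0.00012), and 1 of 3 KO 3 h arrays was well above background. With normexp background correction the fitted differences were smaller, -1.28 in WT and -2.18 in KO, and both were called. Both 0 h groups lay above both 3 h groups. P2ry13 passed the filter through these 0 h groups alone, so the filter favoured a fall with activation.

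P2rx7, the ATP-gated channel whose sustained opening kills mouse T cells, was among the genes that fell. The most 3′ probe read 1.78, 1.69 and 1.94 in WT 0 h and -0.99, -1.19 and -1.21 in WT 3 h. In KO it read 1.89, 1.58 and -0.62 at 0 h and -0.98, -0.96 and -3.63 at 3 h. No 3 h array reached the level of any 0 h array of its genotype, and the 21-week arrays lay lowest of the KO arrays at both times. The difference was -2.93 ± 0.762 in WT, a 7.62-fold fall (limma, adjusted p = 0.0169), and -2.80 ± 0.762 in KO, a 6.98-fold fall (adjusted p = 0.0323). The KO call was lost in 12 of 26 alternatives (adjusted p up to 0.22), among them leaving out KO 0 h replicate 1, KO 0 h replicate 2 or any 1 of the 6 WT arrays. The WT call was lost in 4 of 26, with no shift between arrays and on leaving out WT 0 h replicate 3, WT 3 h replicate 2 or WT 3 h replicate 3 (adjusted p up to 0.0653). The KO difference without the arrays of 21 weeks was -2.70 (adjusted p = 1.71e-05).

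The other P2rx7 probes read the gene 15295 bp and 10781 bp apart (mm9). The most 5′ probe, which begins ggtcaaaaagctcccc, read -0.14, -0.92 and -0.62 in WT 0 h and -2.84, -2.94 and -2.84 in WT 3 h. In KO it read -1.05, -0.96 and -2.69 at 0 h and -2.50, -2.85 and -4.88 at 3 h. In WT the times were separate, and in KO the 21-week array at 0 h lay at the level of the 10-week arrays at 3 h. The middle probe read -1.61, -2.31 and -1.96 in WT 0 h, -5.47, -5.18 and -5.22 in WT 3 h, -2.46, -2.01 and -5.08 in KO 0 h and -3.46, -5.57 and -7.69 in KO 3 h. The WT times were again separate and the KO times overlapped, and the last value was not well above background. Tested probe by probe in WT, the difference was -2.31 (5′), -3.33 (middle) and -2.93 (3′), with limma adjusted p of 0.0188, 0.0299 and 0.0165, and all 3 of 3 probes were called, beside 15.6% of probes called lower. In KO it was -1.85, -2.39 and -2.80, with adjusted p of 0.0667, 0.127 and 0.0326, so that 1 of 3 was called, beside 8.87% of probes. All 3 were called in KO when the arrays of 21 weeks were left out, with limma adjusted p from 1.93e-05 to 0.0148. On those 10 arrays 45.2% of all genes were called in KO, in either direction, and the share of probes was not worked out.

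**Figure D3:**
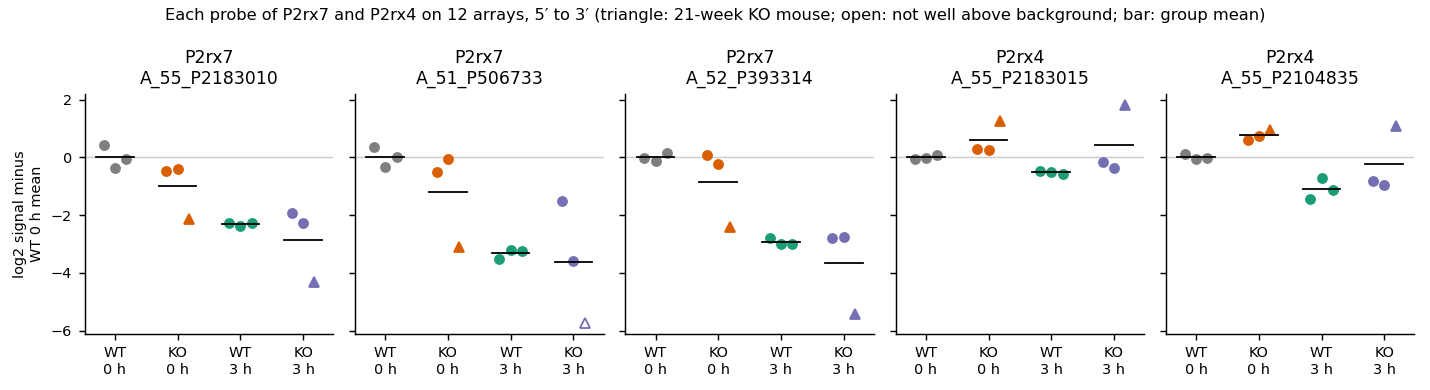
Log2 signal of each of the 3 P2rx7 probes and 2 P2rx4 probes minus that probe's WT 0 h mean (vertical axis), on 12 arrays by group; symbols and bars are arrays and group means, triangles are 21-week KO mice and the open triangle was not well above background. All 3 P2rx7 probes lie lower at 3 h in WT, and the triangles are lowest for P2rx7 and highest for P2rx4.

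P2rx4, an ATP-gated channel encoded 44730 bp beyond the last P2rx7 probe (mm9, to its first probe), did not pass the test on 12 arrays. Its brighter probe read 0.06, 0.08 and 0.21 in WT 0 h and -0.36, -0.40 and -0.46 in WT 3 h. In KO it read 0.40, 0.38 and 1.39 at 0 h and -0.03, -0.27 and 1.92 at 3 h. The WT times did not overlap, but the KO times did, and the 21-week array at 3 h was the highest of all 12. The differences of -0.53 ± 0.501 in WT (limma, adjusted p = 0.467) and -0.18 ± 0.501 in KO (adjusted p = 0.844) did not pass. Once the arrays of 21 weeks were left out, P2rx4 was called at -0.53 in WT (adjusted p = 0.00192) and -0.54 in KO (adjusted p = 0.00632). The second probe, 503 bp further along, differed by -1.09 in WT (adjusted p = 0.0959) and -0.99 in KO (adjusted p = 0.161) on 12 arrays.

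Cd38 fell in both genotypes. It read -2.63, -2.38 and -2.40 in WT 0 h and -4.47, -4.15 and -4.26 in WT 3 h. The KO arrays read -1.39, -2.01 and -2.52 at 0 h and -3.93, -3.77 and -3.41 at 3 h. Every 3 h array lay below every 0 h array of either genotype. The difference was -1.83 ± 0.265 in WT, a 3.55-fold fall (limma, adjusted p = 0.00108), and -1.73 ± 0.265 in KO, a 3.31-fold fall (adjusted p = 0.00306), and the KO call was lost when only the compared groups were fitted (adjusted p = 0.0967). CD38 is also found on B cells, plasma cells and myeloid cells, and the part of such cells in the Cd38 values was not tested.

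P2ry14 rose in WT, from -5.12, -4.84 and -4.98 to -3.42, -3.24 and -3.11. The WT times did not overlap, and the rise was 1.73 ± 0.428, or 3.31-fold (limma, adjusted p = 0.0136), called in 26 of 26 alternatives. With normexp background correction it was 1.14. In KO it went from -3.30, -4.21 and -3.39 to -1.43, -2.76 and -3.37, and the times overlapped. That difference of 1.11 ± 0.428 did not pass on 12 arrays (adjusted p = 0.103), and it was 1.66 without the arrays of 21 weeks (adjusted p = 0.015).

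P2ry10 went from -0.24, -0.13 and -0.33 in WT 0 h to 1.97, 1.72 and 1.62 in WT 3 h. In KO it went from -0.83, -0.83 and -2.20 to 1.66, 1.89 and -1.02. The KO arrays of 10 weeks at 3 h lay within the WT 3 h range, and the array of 21 weeks lay below all WT 0 h arrays. The WT rise of 2.01 ± 0.672, or 4.02-fold, had an adjusted p of 0.0469 (limma) and lost its call in 13 of 26 alternatives (highest adjusted p 0.123), among them quantile normalization, the authors' deposited table, and leaving out KO 0 h replicate 1, KO 0 h replicate 2 or any 1 of the 6 WT arrays. The KO difference of 2.13 ± 0.672 missed the threshold (adjusted p = 0.0549), and without the arrays of 21 weeks it was 2.61 (adjusted p = 1.83e-05).

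Entpd1, which encodes CD39, read -4.14, -4.23 and -4.11 in WT 0 h and -6.27, -5.70 and -5.37 in WT 3 h. In KO it read -4.02, -4.43 and -3.66 at 0 h and -5.32, -5.94 and -3.04 at 3 h. The WT times were separate, whereas the 21-week KO array at 3 h was the highest of all 12. The differences were -1.62 ± 0.610 in WT (limma, adjusted p = 0.0707) and -0.73 ± 0.610 in KO (adjusted p = 0.448). On the other 10 arrays Entpd1 was called at -1.62 in WT (adjusted p = 0.00101) and -1.40 in KO (adjusted p = 0.00773).

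Nt5e, which encodes CD73, moved the other way. It read 0.41, 0.66 and 0.93 in WT 0 h and 1.49, 1.58 and 1.67 in WT 3 h. The KO arrays read 0.67, 0.50 and -1.79 at 0 h and 1.52, 1.45 and -2.09 at 3 h. The KO arrays of 10 weeks lay close to WT at each time, and those of 21 weeks lay below every other array. On 12 arrays the differences of 0.91 ± 0.918 in WT (limma, adjusted p = 0.492) and 0.50 ± 0.918 in KO (adjusted p = 0.761) did not pass. On the other 10 arrays Nt5e was called higher by 0.91 in WT (adjusted p = 0.000847) and by 0.90 in KO (adjusted p = 0.00373).

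The dim receptors P2ry12 and P2ry6 were at -9.68, -9.40 and -9.58 and at -9.67, -9.26 and -9.58 in WT 3 h. In KO 3 h P2ry12 read -8.89, -8.65 and -8.20 and P2ry6 read -8.80, -8.65 and -7.98. No 3 h array was well above background for either gene. In WT neither gene was well above background at either time, so no difference with activation is given.

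Over the set, 2 of 8 members were called higher in WT with activation (P2ry14 and P2ry10), beside 13.3% of all genes, and 3 of 8 lower (P2ry13, P2rx7 and Cd38), beside 16.6%. In KO 0 of 8 were called higher, beside 7.38%, and 3 of 8 lower (P2ry13, P2rx7 and Cd38), beside 9.79%. In both genotypes the filter favoured the fall of P2ry13, which passed it through the 0 h groups alone. The median difference of the members was -1.07 in WT, beside -0.14 over all genes, and -0.46 in KO, beside -0.04. On the 10 arrays without those of 21 weeks it was -1.07 in WT and -0.97 in KO. Without the arrays of 21 weeks 8 of 8 members were called in WT, beside 54.2% of genes, and 8 of 8 in KO, beside 45.2%. The directions were the same in both genotypes: 5 lower (P2ry13, P2rx7, P2rx4, Entpd1 and Cd38) and 3 higher (P2ry14, P2ry10 and Nt5e). The 2 activation comparisons share no arrays, but both came from the same fit, with a common spread for each gene. Their calls are therefore not independent. Leaving out the arrays of 21 weeks changed no WT difference of the 8 members, and only their SEs were smaller. For Nt5e in WT the difference stayed at 0.91, while its SE went from 0.918 to 0.138. The agreement of calls is read with this limit and beside the shares of all genes called.

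Whether activation acted differently in KO was tested as the difference of the 2 activation effects. No member was called in limma (0 of 8, each with an adjusted p of 1.0, and 0 at an unadjusted p under 0.05), beside 0% of all genes. The difference was 0.89 ± 0.862 for Entpd1 and -0.61 ± 0.605 for P2ry14. For P2ry13 no size is given, because its 3 h signals were mostly not well above background. On 10 arrays 0 of 8 were called, beside 0.105% of genes. The SEs on 12 arrays leave differences of 2-fold undetected for every tested member.

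Several members lay far off on the arrays of 21 weeks. Relative to the mean of the KO arrays of 10 weeks, Nt5e differed by -2.37 at 0 h and -3.58 at 3 h. P2rx7 differed by -2.35 and -2.66 and P2ry10 by -1.36 and -2.80. P2rx4 was higher by 1.00 and 2.07 and Entpd1 by 0.56 and 2.59. P2ry6 was higher by 2.25 and 0.74, though not well above background at 3 h. These are values of 1 array at each time, with no test. The T cell markers were low on the same arrays and the plasma cell markers high, as given above. The mean of 9 Treg markers, relative to WT 0 h, was -2.05 at 0 h and -1.74 at 3 h. Of 8 neutrophil markers 1 was tested, and it stood at 9.30 and 6.84. Relative to WT 0 h, the means of mast cell and basophil markers (6.22 and 3.33) and of platelet markers (4.34 and 2.91) were also high. The part of these cell types in the members' values was not tested. P2ry13 and Cd38 shifted by less, by -0.73 and 0.17 and by -0.82 and 0.43.

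**Figure D4:**
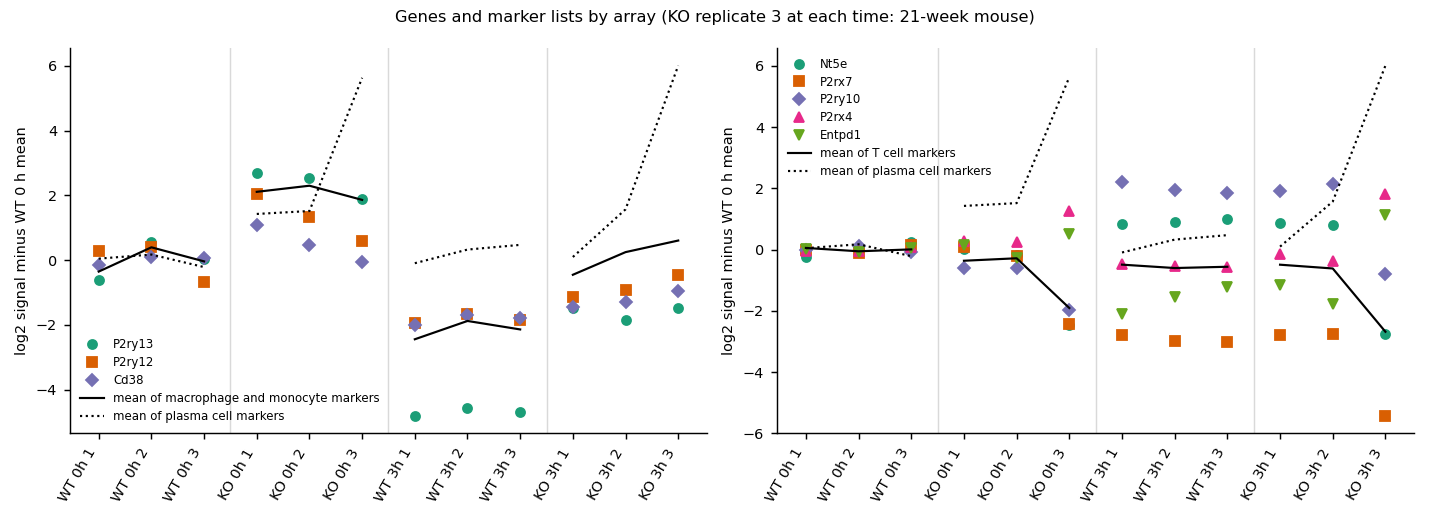
Log2 signal minus the WT 0 h mean (vertical axis) of 8 of the genes (symbols) and the mean of marker lists (lines) on each of the 12 arrays (horizontal axis). On the left, P2ry13 and the macrophage markers are both high in KO 0 h and low in WT 3 h; on the right, the T cell marker line drops on KO replicate 3 at both times, where Nt5e, P2rx7 and P2ry10 are low and P2rx4 and Entpd1 are high.

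The rest of the nucleotide and adenosine system was described with lists of related genes. Of 6 relatives of P2ry12 and P2ry10, 4 were tested. Gpr171, a receptor gene of the P2ry12 to P2ry14 cluster, rose by 1.19 ± 0.351 in WT (limma, adjusted p = 0.0286) and 1.32 ± 0.351 in KO (adjusted p = 0.029). Gpr34, a receptor of macrophages and microglia for lysophosphatidylserine, fell by 3.99 in WT (limma, adjusted p = 0.000841) and 2.86 in KO (adjusted p = 0.00757). At 3 h 2 of 3 WT and 1 of 3 KO arrays were well above background for Gpr34. The gene passed the filter through the 0 h groups alone, so the filter favoured a fall. P2ry10b, the neighbour and close copy of P2ry10, fell by 1.12 in WT (adjusted p = 0.0204), the opposite direction to P2ry10. In KO P2ry10b differed by -0.10 and was not called (limma, adjusted p = 0.854). Without the arrays of 21 weeks it was called there at -0.66 (adjusted p = 0.0193). Probes of such close copies may share signal. Of the 4 other P2Y receptors of nucleotides 1 was tested, and of the 5 other P2X channels 3 were tested, and none was called in any comparison on 12 arrays. Without the arrays of 21 weeks the channel gene P2rx5 was called higher in KO 3 h than in WT 3 h by 1.49 (limma, adjusted p = 0.0227) and lower with activation in WT by 0.96 (adjusted p = 0.00564).

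Of 20 other genes listed as nucleotide and NAD ectoenzymes, 13 were tested. The place of the encoded proteins in the cell was not examined. In WT 6 were called lower and 0 higher, beside 16.6% and 13.3% of all genes. In KO 7 were called lower and 0 higher, beside 9.79% and 7.38%. Both lower counts include Art2a, which passed the filter through WT 0 h alone, and Enpp5, which passed through the 0 h groups alone. The filter thus favoured a fall of Enpp5 in both genotypes and of Art2a in WT. The KO count also includes Enpp3, described below. Art2b, which encodes the ADP-ribosyltransferase that modifies P2RX7 on T cells, fell by 3.34 ± 0.858 in WT (limma, adjusted p = 0.016) and by 3.21 ± 0.858 in KO (adjusted p = 0.0301), where 2 of 3 arrays at 3 h were well above background. Its close paralogue Art2a was also called lower in WT (adjusted p = 0.00402) and in KO (adjusted p = 0.0283), with 1 of 3 WT and 0 of 3 KO arrays well above background at 3 h, and the probes of such copies may share signal. P2rx7 and Art2b thus fell in the same comparisons. Entpd5 and Enpp2 (autotaxin) fell in both genotypes (differences of -1.65 and -1.47 in WT and -1.38 and -2.17 in KO). Enpp5 was at least 3.86-fold lower in WT and at least 1.65-fold lower in KO. Art3 fell in WT by 1.81, and its KO difference of -1.20 was not called (limma, adjusted p = 0.0929). Entpd6 fell in KO by 0.86, and its WT difference of -0.58 was not called (adjusted p = 0.089). Without the arrays of 21 weeks both genes were called lower in both genotypes. The remaining call on 12 arrays was Enpp3, a marker of basophils, in KO. Enpp3 passed the filter through KO 0 h alone, being well above background on 3 of 3 arrays there and 0 of 9 others, so it had to differ in the comparisons with that group. Its levels averaged -6.43 in KO 0 h, -8.62 in WT 0 h, -9.65 in WT 3 h and -8.67 in KO 3 h, and it was called in KO 0 h against WT 0 h (limma, adjusted p = 0.0344) and not without the arrays of 21 weeks (adjusted p = 0.0509). Of 5 mast cell and basophil markers 4 were tested, and 0 were called in that comparison (median 3.93), and Mcpt8 was well above background on 10 of 12 arrays; their part in the Enpp3 values was not tested.

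Of 10 genes of adenosine handling and ATP release, 9 were tested. Adk, adenosine kinase, rose by 1.54 ± 0.257 in WT (limma, adjusted p = 0.00221) and 1.09 ± 0.257 in KO (adjusted p = 0.018). Slc29a1, the equilibrative nucleoside transporter ENT1, fell by 1.21 (adjusted p = 0.000783) and 1.18 (adjusted p = 0.00199). Slc29a2 rose by 0.57 (adjusted p = 0.0495) and Slc17a9, the vesicular nucleotide transporter, fell by 1.74 (adjusted p = 0.00259) in WT. In KO they differed by -0.02 (limma, adjusted p = 0.959) and -0.90 (adjusted p = 0.0663), with neither called. Without the arrays of 21 weeks Slc17a9 was called in KO at -1.49 (adjusted p = 0.000241). Of 4 adenosine receptors 3 were tested and 0 were called. Adora2a, the receptor through which adenosine acts on T cells, differed by 1.90 ± 0.652 in WT (adjusted p = 0.0516) and 1.98 ± 0.652 in KO (adjusted p = 0.0632), and without the arrays of 21 weeks it was called higher in both (adjusted p = 0.000158 and 0.000141). On those 10 arrays Adora3 was called lower in WT (limma, adjusted p = 0.00762) and in KO (adjusted p = 0.0347), though none of the 3 h arrays kept was well above background. Adora3 passed the filter through the 0 h groups alone, so the filter favoured a fall. Panx1, a channel that releases ATP, differed by -0.45 between KO and WT at 0 h on the same 10 arrays (adjusted p = 0.029), against -0.65 and no call on 12 (adjusted p = 0.176).

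**Figure D5:**
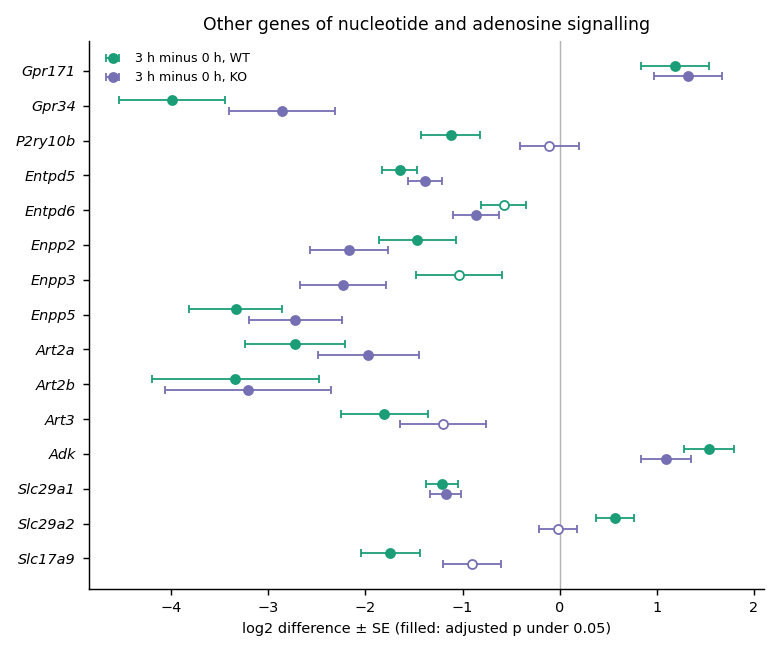
Log2 difference ± SE between 3 h and 0 h (horizontal axis) for the 15 other genes of nucleotide and adenosine signalling that were called in at least 1 comparison, in WT (green) and KO (purple); filled points have an adjusted p under 0.05. Most genes of the ectoenzyme list lie left of 0 in both genotypes, and Gpr171 and Adk lie right of it.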

How the data were processed

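The data were 12 Agilent mouse arrays. The deposited scanner files hold spot intensity on a linear scale, and their processed signal had background subtracted, per the file headers. The scanner software, Agilent Feature Extraction, is version 11 in the submitters' processing notes and 10.7.3.1 in the headers. The authors also deposited a table of log2 values with a median of 3.89 in every column (Partek is named, with no version or role, in the submitters' processing notes); its scale and centring were read from its values, and it was used as an alternative. Array designs used mm9 per the file headers.

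Control spots and outlier spots were left out. Log2 processed signals were averaged per probe and shifted by each array's 75th percentile, taken over the 19799 probes that every array showed well above background (mean detection 46.59%). Of 55681 probes, 515 lacked a value on at least 1 array and were not tested. A gene was represented by its brightest probe among those well above background throughout some group. Groups came from the source labels, and replicate numbers follow accession order and pair no arrays. The 4 group means were fitted with limma 3.58.1 in R 4.3.3 (8 residual degrees of freedom). Adjusted p-values are Benjamini-Hochberg values over all 18545 genes, or over 26261 probes where probes are tested singly. Folds said to be "at least" set the bright mean against the higher of the lowest signal well above background and the probe's own. The fitting script was tested on simulated data. The number of arrays limits the precision.

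The 10 genes and the lists were chosen with earlier results of these data known. All 10 genes are named with their values; of the listed related genes, those called in at least 1 comparison (and Adora2a, Adora3, P2rx5 and Panx1, named after their values were seen) are named. Alternatives covered normalization, background correction, the filter, the choice of probe, array weights, age, the samples in the fit and each array left out in turn. Gene names came from accessions for 27509 probes, from symbols for 3549 and from synonyms for 404.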

Additional observations from a re-analysis of the deposited data

How the results depend on the processing

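The members called on 12 arrays were 1 and 1 between genotypes (0 h, 3 h), 5 and 3 for activation (WT, KO) and 0 for the difference of the activation effects, and none of them reversed under any alternative. Counts of called members moved as follows. They are no result about the members, since the share of all genes is given only for the fit on 10 arrays. Without the arrays of 21 weeks the counts were 3 at 0 h, 9 in WT activation and 9 in KO activation. Each included P2ry12, which passed the filter through KO 0 h alone (2, 8 and 8 otherwise). The shares of all genes called there were 6.51%, 54.2% and 45.2%. With a term for the age of 21 weeks, 8 were called in WT activation. With only the compared groups in the fit, the counts were 0 at 3 h, 8 in WT and 1 in KO activation. Array quality weights gave 2 at 0 h, 8 in WT and 6 in KO activation. A filter that kept probes well above background on every array gave 0 at 0 h and 0 at 3 h, since P2ry13 is then not tested. Normexp gave 0 at 3 h, and no shift between arrays gave 3 in WT activation. Apart from these constructions, the cause was not tested. Leaving out 1 array at a time gave 1 to 2 at 0 h, 3 to 6 in WT activation (3 without WT 0 h replicate 3, WT 3 h replicate 2 or WT 3 h replicate 3) and 2 to 7 in KO activation (7 without KO 3 h replicate 3); 2 were called at 0 h without KO 3 h replicate 1. Among the scalings, the one with no shift between arrays moved the median of all genes most (by -0.40, genotypes at 3 h). No paired analysis was possible because the labels give no replicate numbers. No slide block could be fitted, since each group lay on 1 slide. Signal over background limits P2ry13 at 3 h, P2ry12 and P2ry6.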

Other observations

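The tested genes whose values over the 12 arrays lay nearest to a member, by the root mean square difference after centring each gene on its own mean, were as follows. Gm5150 (0.466) and Trpm2 (0.481), the latter a cation channel gated by ADP-ribose, lay nearest to P2ry13, whose own SD over the arrays was 2.70. Gpr132, a G-protein-coupled receptor of leukocytes (0.218), and Rundc3b (0.250) lay nearest to P2ry10. Prdm9 (0.205) and Fam111a (0.216) lay nearest to Cd38. The nearest features to P2rx7 and P2ry14 have no gene symbol in the files and are not named here. The nearest gene was found among 18545, and no test was made.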
